A study of Danio rerio with 14 samples.

Results

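Cells that have copied their DNA must condense the chromosomes, attach them to a spindle and part into daughter cells, and the genes that do this are transcribed mostly late in the cell cycle. Zebrafish fins regrow from a blastema, a mass of dividing mesenchyme under a wound epidermis, and transcripts of these genes are widely used as a mark of division. The genes described here are 49 mitosis and chromosome segregation genes, chosen by symbol from the 14836 genes of the deposited table. The symbols cover centromere proteins (cenp), mitotic kinesins (kif), Bub and Mad checkpoint proteins, Aurora and Polo kinases, the A and B cyclins, cdk1, condensins, topoisomerase II and proteins of the kinetochore, spindle, anaphase and cytokinesis. A gene also needed at least 1 TPM (a length-corrected share of the transcripts in a library) in at least 2 of the 14 libraries, which 49 of 50 matching genes met. The gene left out was birc5b, listed at 0 in every library except replicate 2 of 7 dpa, where it was at 0.0671 TPM. The symbols and the level required used no difference between times, though they were set with earlier results of these data known.

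Bulk RNA sequencing was done on the outermost strip, about 250 µm deep, of fin rays in wild-type fish. The groups were 0 dpa (days post amputation, the day of amputation), 3 dpa, 7 dpa, 10 dpa and 14 dpa, with 3 libraries at each time except 14 dpa, which has 2. The labels say 3 dpa where the study's design text says 3.5, and the group is called 3 dpa here. Animals were pooled by 10 for a library, as the design text says, and no strain, sex, age or further treatment is given. Each regrowth time was set against 0 dpa, and consecutive times and 14 against 3 dpa were also compared. In bulk tissue, fewer cells of a type and less RNA per cell cannot be told apart.

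The tip held epidermis and mesenchyme at every time. Of 12 epidermal markers 11 were tested. Their sum lay between 78022 and 114352 TPM at 0 dpa, 38943 and 47798 at 3 dpa and 72663 and 73746 at 14 dpa. Most of it was the keratin gene krt5, with means of 69934 TPM at 0 dpa, 32308 at 3 dpa and 50901 at 14 dpa. Marker by marker 1 of the 11 was higher at 14 than at 0 dpa and 1 lower, where 10.1% of all genes were higher and 1.08% lower. The 11 tested markers of mesenchyme and blastema summed to between 1950 and 2669 TPM at 0 dpa, between 9235 and 11366 at 3 dpa, between 3391 and 6975 at 7 dpa, between 3043 and 5426 at 10 dpa and between 3706 and 4617 at 14 dpa. The fibronectin gene fn1b made up between 39.6% and 92.7% of this sum. Marker by marker 5 of the 11 were lower at 14 than at 10 dpa and none higher, with a median log2 change of -0.63. Of all genes 3.64% were lower and 5.14% higher in that comparison. The 9 osteoblast markers summed to between 12847 and 12974 TPM at 3 dpa and between 227 and 369 at 0 dpa. The gene col10a1a made up between 62.3% and 96.1% of this sum over the libraries. Marker by marker 6 of the 9 were higher at 3 dpa and none lower, where 35% of all genes were higher. Their log2 changes ran from -0.58 to 5.93. At 3 dpa 11 of the 11 mesenchymal markers were higher than at 0 dpa and 10 of the 11 epidermal markers were lower. Of all genes 35% were higher and 19.6% lower. The part of this tissue shift in the results below was not tested. Depth is unknown, because TPM carries none. 4 libraries stand apart from the others of their time, namely replicate 1 of 0 dpa, replicate 2 of 7 dpa and 10 dpa replicates 2 and 3. The AP-1 gene fosb was at 1348, 1702, 886 and 1343 TPM in them and between 23.05 and 144 TPM in the other 10. Results are therefore also given without these 4 libraries, which leaves 1 library at 10 dpa.

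As a group the mitosis genes had their highest summed level at 3 dpa, lower ones at 7, 10 and 14 dpa, and the lowest at 0 dpa. Summed over the 49 genes, the level was 717 ± 195 TPM at 0 dpa, 1644 ± 34.3 at 3 dpa, 1124 ± 242 at 7 dpa, 1078 ± 142 at 10 dpa (SD, n = 3 each) and 1324 ± 75.1 at 14 dpa (SD, n = 2). The mean was highest at 3 dpa for 41 genes, which is 83.7% of the 49 against 35.3% of all 11272 genes past the filter. Of the other 8, aurkb, cenph, ncapg, ncaph2 and smc2 had their highest mean at 14 dpa, cenpq and ska2 at 7 dpa and ncapg2 at 10 dpa. The lowest mean was at 0 dpa for 48 genes, cenpq being the exception. For 33 genes the means ran in the order 3, 14, then 7 and 10, then 0 dpa. The share of all genes is not given for these last counts. Of all 11272 genes, 6956 had a positive change at 3 against 0 dpa and 8957 at 14 against 0 dpa. By the F test over the 4 regrowth times, 36 of the 49 differed from 0 dpa at some time, where 47.6% of all genes did. Without replicate 2 of 0 dpa 23 did, a fit for which the share of all genes is not given. Levels averaged between 1.36 TPM (cenph) and 103 TPM (top2a) over the 14 libraries, with a median of 15.7 TPM.

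**Figure D1:**
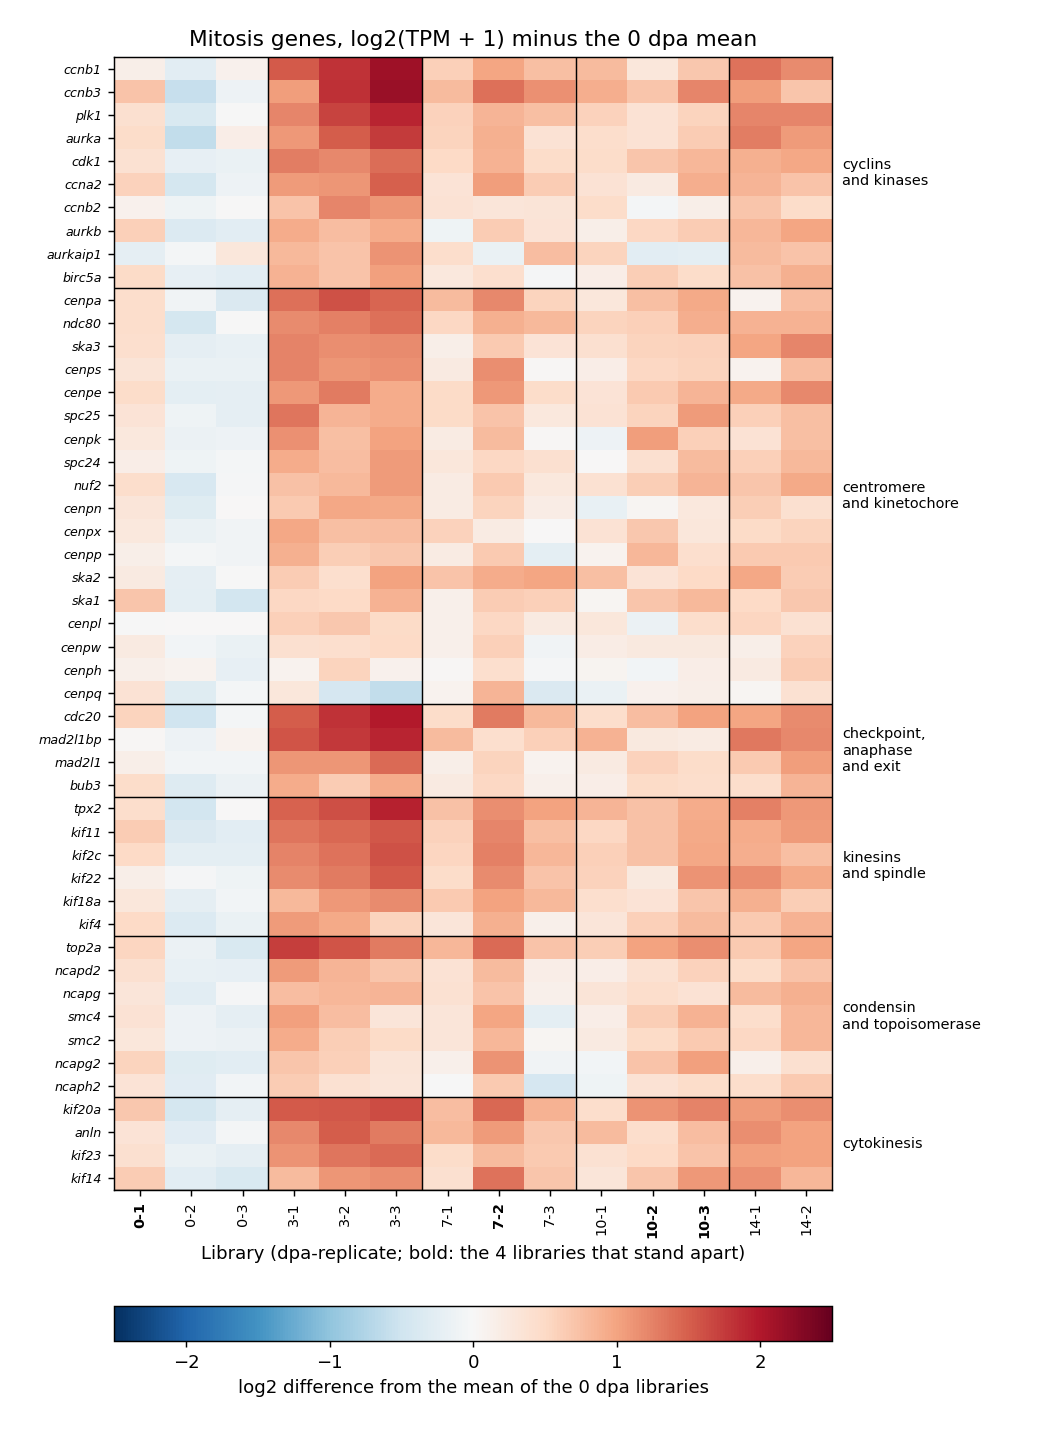
Each row is 1 of the 49 genes, grouped by role and ordered by its change at 3 dpa, and each column 1 library, in order of time. Colour gives log2(TPM + 1) minus the mean of the 0 dpa libraries. The 3 dpa columns are the reddest for most rows, and cenpq, at the foot of the kinetochore block, is the only row of the 49 that is blue in any 3 dpa library, in 2 of them.

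At 3 dpa 42 of the 49 genes were higher than at 0 dpa and none was lower (limma, an adjusted p under 0.05 by Benjamini-Hochberg over all genes), where 35% of all genes tested were called higher and 19.6% lower. The 3 dpa libraries lay wholly above the 0 dpa libraries for 43 genes, as they did for 39.2% of all genes. The median log2 change of the 49 was 1.02, and that of all genes was 0.24, so that the mitosis genes stood 0.78 above the general shift. After median-of-ratios scaling, which brings the median of all genes to 0.02, 37 genes were higher and none lower, with 26% of all genes higher and 26.7% lower. The calls lost were those of aurkaip1, cenpl, cenpp, ska2 and smc2 (limma, adjusted p between 0.0517 and 0.0884). Without the 4 libraries that stand apart 47 genes were higher, all but cenph and cenpq, where 42.4% of all genes were. Leaving out single libraries kept between 37 and 45 calls, and 36 of the 42 genes were called in each of these 14 fits.

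The engine of mitotic entry is the kinase Cdk1 bound to an A or B cyclin, and the Polo and Aurora kinases act with it. Grouped with their genes here are also birc5a and aurkaip1. At 3 dpa all 10 genes of this group were higher than at 0 dpa, where 35% of all genes were. For ccnb1, which encodes the main B cyclin, the level was 20.04, 14.9 and 19.5 TPM at 0 dpa, 54.1, 65.5 and 81.7 at 3 dpa, 27.9, 36.4 and 31.0 at 7 dpa, 31.7, 22.2 and 29.2 at 10 dpa, and 47.7 and 42.3 at 14 dpa. Every 3 dpa library stood above every other, and those at 14 dpa above those at 0, 7 and 10 dpa. The log2 change at 3 dpa was 1.82 ± 0.19 (adjusted p = 6.23e-06), and the ratio of mean TPM was 3.70. For the kinase gene cdk1 the level was 27.9, 18.2 and 18.9 TPM at 0 dpa, 52.9, 50.1 and 57.3 at 3 dpa, 30.6, 39.6 and 29.5 at 7 dpa, 29.7, 35.1 and 38.6 at 10 dpa, and 40.5 and 42.6 at 14 dpa. All libraries taken during regrowth exceeded all 3 from 0 dpa, and the log2 change was 1.29 ± 0.18 at 3 dpa (adjusted p = 6.32e-05). For ccna2, whose cyclin acts in DNA synthesis and on the way into mitosis, the level was 16.4, 7.63 and 9.71 TPM at 0 dpa, 23.5, 24.2 and 32.2 at 3 dpa, 13.9, 23.1 and 17.2 at 7 dpa, 14.0, 12.7 and 21.1 at 10 dpa, and 20.1 and 18.2 at 14 dpa, with a log2 change of 1.22 ± 0.28 at 3 dpa. The highest 0 dpa library, replicate 1, lay within the 7 and 10 dpa libraries. The other B cyclins were lower in level, ccnb2 at 2.02, 1.62 and 1.81 TPM at 0 dpa, 3.62, 5.52 and 5.06 at 3 dpa, 2.63, 2.48 and 2.51 at 7 dpa, 2.86, 1.72 and 2.10 at 10 dpa, and 3.57 and 2.87 at 14 dpa. Its log2 change at 3 dpa, 1.01 ± 0.18, rests on levels of a few TPM and understates the ratio of mean TPM, 2.60. For ccnb3, named for a cyclin that promotes anaphase in several animals, the level was 6.55, 2.09 and 3.22 TPM at 0 dpa, 8.51, 15.3 and 19.6 at 3 dpa, 7.03, 11.1 and 9.26 at 7 dpa, 7.65, 6.49 and 9.69 at 10 dpa, and 8.48 and 6.47 at 14 dpa, a log2 change of 1.67 ± 0.34 at 3 dpa. For ccnb2 all 3 dpa libraries stood above the rest, while for ccnb3 the lowest of them, replicate 1, lay among those of 7, 10 and 14 dpa.

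The Polo kinase gene plk1, needed for centrosome maturation and entry into mitosis, was at 34.4, 19.5 and 25.4 TPM at 0 dpa, 61.5, 85.6 and 99.4 at 3 dpa, 38.9, 47.4 and 44.0 at 7 dpa, 38.7, 33.2 and 38.1 at 10 dpa, and 60.9 and 61.6 at 14 dpa. The 3 dpa libraries lay above the rest, apart from replicate 1 of 3 dpa, which was close to the 14 dpa libraries. The log2 change at 3 dpa was 1.61 ± 0.21 (adjusted p = 3.39e-05). For aurka, the Aurora kinase of spindle poles, the level was 9.72, 4.12 and 7.77 TPM at 0 dpa, 15.7, 21.3 and 25.3 at 3 dpa, 10.4, 13.6 and 9.06 at 7 dpa, 9.58, 9.01 and 11.2 at 10 dpa, and 17.9 and 15.3 at 14 dpa, and the change was 1.45 ± 0.27. Its replicate 1 of 3 dpa lay between the 14 dpa libraries, and replicate 1 of 0 dpa among those of 7 and 10 dpa. For aurkb, the kinase of the chromosomal passenger complex, it was 28.5, 14.4 and 15.2 TPM at 0 dpa, 36.3, 32.5 and 36.2 at 3 dpa, 17.0, 29.3 and 23.7 at 7 dpa, 20.6, 26.8 and 29.3 at 10 dpa, and 33.7 and 37.8 at 14 dpa. Here the 14 dpa libraries were as high as those at 3 dpa, and replicate 1 of 0 dpa was nearly as high as replicate 2 of 7 dpa. The aurkb change at 3 dpa was 0.88 ± 0.25 (adjusted p = 0.0105), and it missed the threshold without replicate 2 of 0 dpa (0.72, adjusted p = 0.0516). Its partner survivin, encoded by birc5a, changed by 0.86 ± 0.22. The symbol rule also took in aurkaip1, a gene named for binding Aurora A whose human product is found with mitochondrial ribosomes. The aurkaip1 change was 0.88 ± 0.27, and 0.76 (adjusted p = 0.0572) without replicate 3 of 3 dpa. After median-of-ratios scaling it was 0.63 and missed the threshold (limma, adjusted p = 0.0884).

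**Figure D2:**
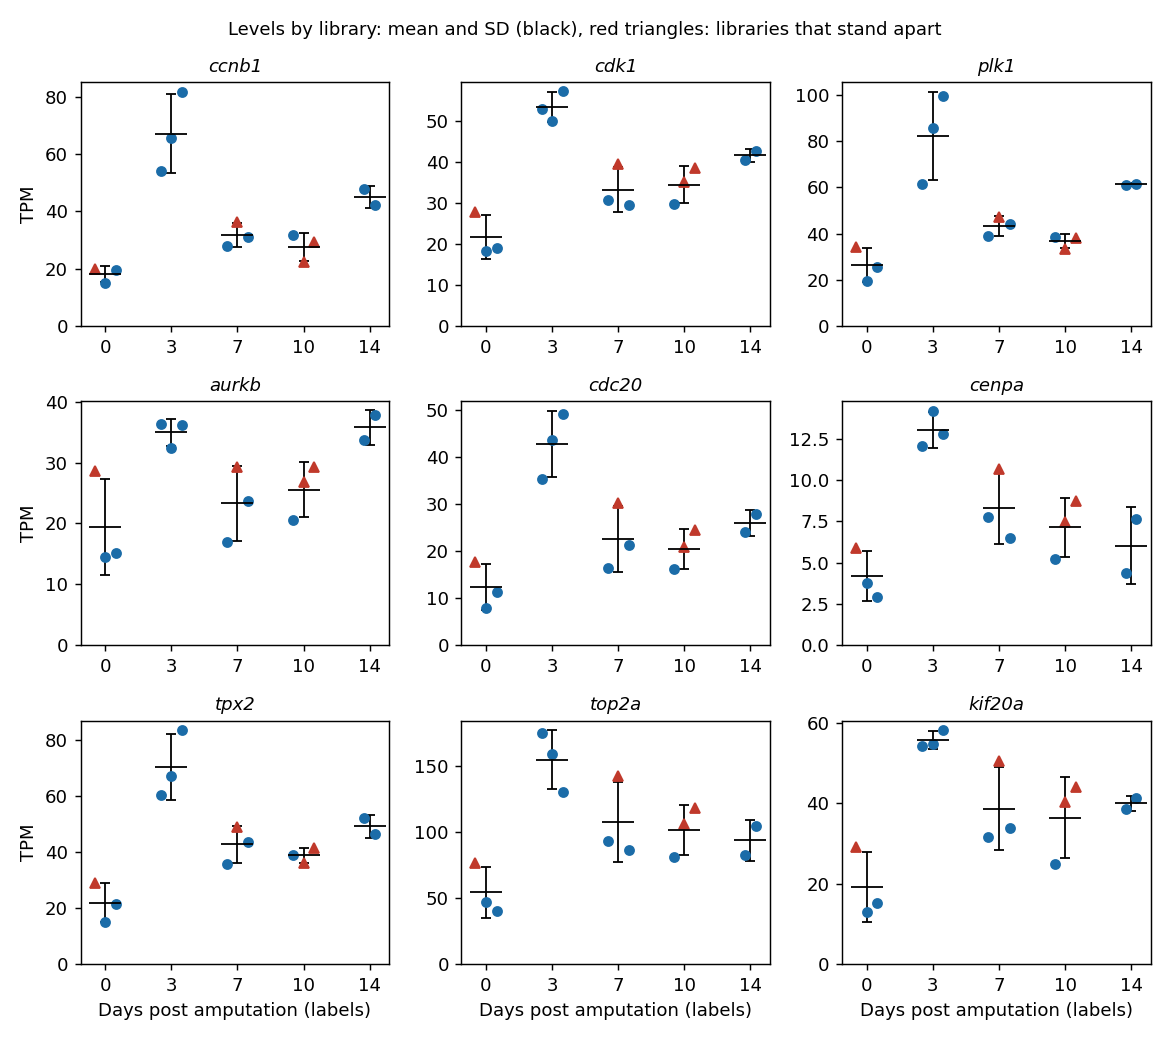
TPM of 9 of the genes in each library by time (days post amputation as in the labels), each panel on its own axis from 0, with the mean and SD in black. Red triangles are the 4 libraries that stand apart. In 8 of the 9 panels the 3 dpa mean is the highest, and in that of aurkb the 14 dpa libraries reach the level of 3 dpa.

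The centromere is marked by the histone variant Cenpa, on which a constitutive network of Cenp proteins sits, and the outer kinetochore (Ndc80 and Ska complexes) grips the microtubules. Of these 18 genes 14 were higher at 3 dpa and none was lower, where 35% of all genes were higher and 19.6% lower. Their median log2 change was 0.86. For cenpa the level was 5.87, 3.78 and 2.95 TPM at 0 dpa, 12.1, 14.2 and 12.8 at 3 dpa, 7.76, 10.7 and 6.48 at 7 dpa, 5.19, 7.48 and 8.74 at 10 dpa, and 4.37 and 7.67 at 14 dpa. All 3 dpa libraries lay above all others, and the log2 change was 1.47 ± 0.27 (adjusted p = 5.51e-04). The Ndc80 complex gene ndc80 was at 12.9, 6.55 and 9.11 TPM at 0 dpa, 22.2, 23.4 and 25.6 at 3 dpa, 13.6, 17.96 and 16.9 at 7 dpa, 14.0, 14.5 and 18.2 at 10 dpa, and 17.6 and 17.7 at 14 dpa, again with all 3 dpa libraries the highest, and changed by 1.28 ± 0.21 (adjusted p = 2.54e-04). Its partner genes changed by 0.87 ± 0.23 (nuf2), 0.92 ± 0.20 (spc24) and 1.04 ± 0.23 (spc25). For ska3 the level was 5.33, 3.04 and 3.15 TPM at 0 dpa, 10.2, 9.58 and 9.74 at 3 dpa, 4.27, 6.43 and 5.03 at 7 dpa, 5.26, 5.96 and 6.10 at 10 dpa, and 8.34 and 10.0 at 14 dpa. Its 14 dpa libraries overlapped those of 3 dpa, and the change at 3 dpa was 1.19 ± 0.20. The log2 difference was 0.68 ± 0.20 for ska2, which passed, and 0.63 ± 0.29 for ska1, which did not (adjusted p = 0.0857). After median-of-ratios scaling ska2 changed by 0.44 and missed the threshold (limma, adjusted p = 0.0517). The kinetochore motor gene cenpe, the most abundant of the group, was at 58.8, 35.9 and 36.5 TPM at 0 dpa, 91.1, 107 and 81.5 at 3 dpa, 59.6, 92.1 and 59.1 at 7 dpa, 54.0, 67.5 and 77.1 at 10 dpa, and 82.6 and 99.5 at 14 dpa. It changed by 1.102 ± 0.226 at 3 dpa, and its 14 dpa libraries lay within the range of the 3 dpa ones.

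Of the 9 genes of the constitutive centromere network 6 were called higher at 3 dpa, where 35% of all genes were. The log2 changes of all 9 lay between -0.25 and 1.17. These genes were low, and cenps, the one with the largest change (1.17 ± 0.28), was at 3.82, 3.38 and 3.50 TPM at 3 dpa and 1.55, 0.810 and 0.805 TPM at 0 dpa. The others called were cenpk, cenpl, cenpn, cenpp and cenpx. The cenpp call (0.72) was lost without replicate 2 of 0 dpa (0.70, adjusted p = 0.0558), replicate 3 of 0 dpa (0.68, adjusted p = 0.0583) or replicate 1 of 3 dpa (0.64, adjusted p = 0.0668). The 3 genes that did not pass were cenph (0.25, adjusted p = 0.285), cenpw (0.44, adjusted p = 0.0765) and cenpq (-0.25, adjusted p = 0.507). For cenpq the level was 3.63, 1.85 and 1.501 TPM at 3 dpa and 3.91, 2.09 and 2.68 TPM at 0 dpa, overlapping ranges. With so few TPM, the added 1 TPM of the log scale shrinks their changes.

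The spindle checkpoint holds the cell until all kinetochores are attached, and Cdc20 then lets the anaphase-promoting complex start chromosome separation. All 4 genes of this group were higher at 3 dpa, where 35% of all genes were. For cdc20 the level was 17.6, 7.97 and 11.3 TPM at 0 dpa, 35.2, 43.6 and 49.1 at 3 dpa, 16.4, 30.2 and 21.2 at 7 dpa, 16.1, 20.7 and 24.5 at 10 dpa, and 24.1 and 27.9 at 14 dpa. Every 3 dpa library exceeded every other, and the log2 change was 1.77 ± 0.28 (adjusted p = 1.71e-04). For mad2l1, which encodes the Mad2 checkpoint protein, it was 13.5, 11.3 and 11.3 TPM at 0 dpa, 26.8, 26.9 and 33.7 at 3 dpa, 13.4, 18.2 and 12.9 at 7 dpa, 14.2, 18.4 and 16.9 at 10 dpa, and 19.5 and 25.7 at 14 dpa, a change of 1.20 ± 0.18 (adjusted p = 1.34e-04), with the 3 dpa libraries above all others. Its antagonist gene mad2l1bp, whose product helps to silence the checkpoint, was at 1.69, 1.42 and 1.81 TPM at 0 dpa, 6.80, 7.96 and 8.81 at 3 dpa, 3.55, 2.55 and 2.98 at 7 dpa, 3.79, 2.12 and 2.03 at 10 dpa, and 5.59 and 5.07 at 14 dpa. Its 3 dpa libraries were the highest and those of 14 dpa next, clear of 0, 7 and 10 dpa, and the change at 3 dpa was 1.74 ± 0.20 (adjusted p = 1.18e-05). The checkpoint gene bub3, the most abundant of the 4, was at 36.6, 20.8 and 23.7 TPM at 0 dpa, 51.0, 41.0 and 50.6 at 3 dpa, 30.9, 37.8 and 28.9 at 7 dpa, 29.4, 37.1 and 36.0 at 10 dpa, and 35.8 and 48.0 at 14 dpa. It changed by 0.83 ± 0.21 at 3 dpa, and replicate 1 of 0 dpa lay among the 7 and 10 dpa libraries.

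Kinesins build and move the spindle. All 6 genes of the spindle group were higher at 3 dpa, where 35% of all genes were, with log2 changes between 0.85 and 1.67. The spindle assembly factor gene tpx2, whose product activates Aurora A, was at 29.0, 15.2 and 21.5 TPM at 0 dpa, 60.4, 67.1 and 83.4 at 3 dpa, 35.9, 48.7 and 43.5 at 7 dpa, 39.0, 35.9 and 41.3 at 10 dpa, and 52.1 and 46.3 at 14 dpa. The 0 dpa libraries were below all those of regrowth, and the change at 3 dpa was 1.67 ± 0.21 (adjusted p = 2.73e-05). For kif11, the motor that pushes spindle poles apart, the level was 52.5, 25.7 and 27.7 TPM at 0 dpa, 86.6, 92.9 and 100.1 at 3 dpa, 50.5, 79.2 and 56.9 at 7 dpa, 48.4, 56.7 and 65.5 at 10 dpa, and 64.3 and 70.7 at 14 dpa, with a change of 1.45 ± 0.24 (adjusted p = 2.95e-04). For kif2c, which removes tubulin from microtubule ends, it was 11.9, 6.75 and 6.76 TPM at 0 dpa, 20.9, 22.7 and 26.8 at 3 dpa, 12.4, 21.0 and 15.3 at 7 dpa, 12.8, 14.3 and 16.9 at 10 dpa, and 16.4 and 14.5 at 14 dpa, a change of 1.403 ± 0.235. For kif11 the 3 dpa libraries were the highest and replicate 1 of 0 dpa lay among those of 7 and 10 dpa. For kif2c the 0 dpa libraries were the lowest, and replicate 2 of 7 dpa was level with replicate 1 of 3 dpa. The chromosome-bound kinesin genes kif22 and kif4 changed by 1.34 ± 0.23 and 0.85 ± 0.25, and kif18a, which damps chromosome movement, by 1.03 ± 0.19. The kif4 call was lost without replicate 2 of 0 dpa (0.68, adjusted p = 0.0616) or replicate 1 of 3 dpa (0.75, adjusted p = 0.0507).

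Condensins fold chromosomes for division and topoisomerase II untangles their DNA. Of these 7 genes 4 were higher at 3 dpa, where 35% of all genes were. The topoisomerase gene top2a, the most abundant of all 49, was at 76.2, 47.1 and 40.0 TPM at 0 dpa, 175, 159 and 131 at 3 dpa, 93.5, 142 and 86.6 at 7 dpa, 81.3, 106 and 118 at 10 dpa, and 82.8 and 104 at 14 dpa. Its 3 dpa libraries overlapped only replicate 2 of 7 dpa, and the change was 1.53 ± 0.25 (adjusted p = 2.38e-04). Of condensin I, ncapd2 was at 46.7, 30.9 and 30.5 TPM at 0 dpa, 75.3, 64.1 and 57.6 at 3 dpa, 45.5, 61.9 and 39.9 at 7 dpa, 39.9, 46.5 and 53.3 at 10 dpa, and 48.9 and 58.7 at 14 dpa, and changed by 0.87 ± 0.21, with replicate 2 of 7 dpa and replicate 2 of 14 dpa inside the 3 dpa range. Its partner ncapg was at 29.2, 19.5 and 22.96 TPM at 0 dpa, 40.8, 42.4 and 43.1 at 3 dpa, 31.2, 39.1 and 25.7 at 7 dpa, 29.8, 32.4 and 30.4 at 10 dpa, and 41.7 and 44.6 at 14 dpa, a change of 0.81 ± 0.17, with the 14 dpa libraries level with those of 3 dpa. Of the core ATPase genes shared by both condensins, smc2 was called (0.67 ± 0.21) and smc4 was not (0.70 ± 0.30, adjusted p = 0.0640). The smc2 call was lost without replicate 2 of 0 dpa (0.60, adjusted p = 0.0625), replicate 3 of 0 dpa (0.60, adjusted p = 0.0607) or replicate 1 of 3 dpa (0.54, adjusted p = 0.0732). The condensin II genes ncapg2 (0.54 ± 0.35, adjusted p = 0.211) and ncaph2 (0.44 ± 0.27, adjusted p = 0.181) did not pass, and whether they differ from condensin I was not tested. Without the 4 libraries that stand apart all 7 genes of this group were higher at 3 dpa.

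The last group acts as the cell is pinched apart, and all 4 of its genes were higher at 3 dpa, where 35% of all genes were. For kif20a, a kinesin of the central spindle, the level was 29.2, 13.04 and 15.3 TPM at 0 dpa, 54.1, 54.6 and 58.1 at 3 dpa, 31.5, 50.4 and 33.9 at 7 dpa, 24.9, 40.2 and 43.9 at 10 dpa, and 38.6 and 41.3 at 14 dpa. Highest were the 3 dpa libraries, followed by replicate 2 of 7 dpa, and the log2 change was 1.57 ± 0.28 (adjusted p = 5.01e-04). The contractile ring scaffold gene anln was at 43.7, 28.2 and 33.1 TPM at 0 dpa, 80.2, 100.3 and 85.8 at 3 dpa, 61.0, 72.6 and 55.6 at 7 dpa, 60.5, 47.2 and 59.6 at 10 dpa, and 78.8 and 69.7 at 14 dpa, a change of 1.34 ± 0.17 (adjusted p = 3.97e-05), and here all regrowth libraries exceeded those of 0 dpa. For kif23, of the centralspindlin complex, the level was 30.1, 19.8 and 18.9 TPM at 0 dpa, 50.01, 58.2 and 61.7 at 3 dpa, 31.3, 39.3 and 35.8 at 7 dpa, 29.5, 32.0 and 37.5 at 10 dpa, and 46.8 and 46.2 at 14 dpa, a change of 1.29 ± 0.18 (adjusted p = 6.27e-05), with the 3 dpa libraries above all others. The kif14 change was 1.02 ± 0.31, and its call was lost without replicate 2 of 0 dpa (0.89, adjusted p = 0.0601), replicate 3 of 0 dpa (0.83, adjusted p = 0.0641) or replicate 3 of 3 dpa (0.94, adjusted p = 0.0504).

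**Figure D3:**
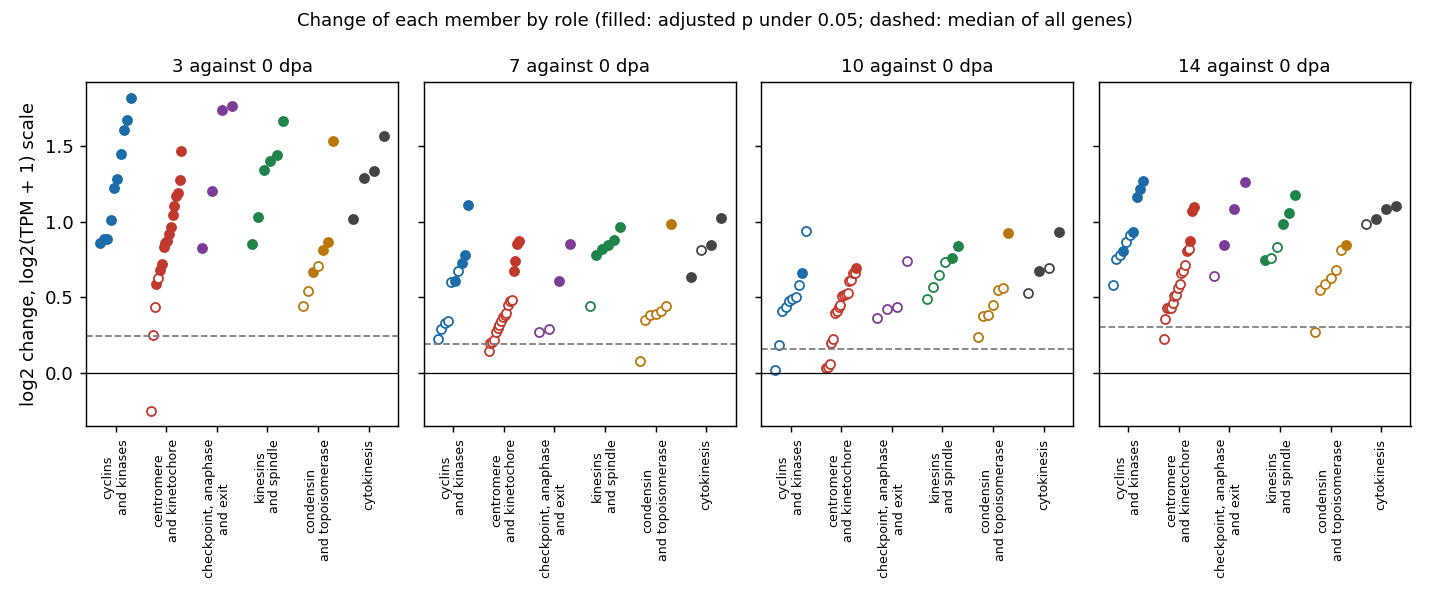
Log2 change of each gene against 0 dpa, on the log2(TPM + 1) scale, by role, in 1 panel per time. Filled points passed the adjusted threshold, open points did not, and the dashed line is the median of all genes tested. At 3 dpa most points are filled and lie well above the dashed line, at 10 dpa most are open, and at 14 dpa all but 2 lie above it.

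At 7 dpa 19 of the 49 genes were higher than at 0 dpa and none was lower, where 21.5% of all genes were higher and 9.07% lower. The median log2 change was 0.45 against 0.19 for all genes. With median-of-ratios scaling 13 were higher, 26.5% of the 49 against 16.2% of all genes. The count moved with single libraries: it was 6 without replicate 2 of 0 dpa, 8 without replicate 3 of 0 dpa and 7 without replicate 2 of 7 dpa. The share of all genes is not given for these fits. Without all 4 libraries that stand apart 22 were higher, 44.9% of the 49 against 26% of all genes. The 6 genes called in every fit that left out 1 library were tpx2 (0.97 ± 0.21), top2a (0.99 ± 0.25), ska2 (0.87 ± 0.20), anln (0.85 ± 0.17), kif18a (0.82 ± 0.19) and ccnb1 (0.78 ± 0.19).

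At 7 dpa 11 of the 49 genes were lower than at 3 dpa and none was higher, where 7.57% of all genes were lower and 9.14% higher, and the change was negative for 47 genes, all but ska2 and cenpq. The median log2 change was -0.54 against -0.03 for all genes. The largest falls were in mad2l1bp (-1.14 ± 0.20, adjusted p = 0.00193), ccnb1 (-1.04 ± 0.19, adjusted p = 0.00270) and mad2l1 (-0.94 ± 0.18, adjusted p = 0.00397), and these 3 calls held whichever library was left out. The others lower were cdc20 (-0.92), plk1 (-0.88), aurka (-0.85), ska3 (-0.81), tpx2 (-0.70), ccnb2 (-0.68), cdk1 (-0.68) and kif23 (-0.66), each lost in at least 1 such fit, where adjusted p reached between 0.0515 (plk1 without replicate 3 of 3 dpa) and 0.161 (aurka). The count was 4 without replicate 3 of 3 dpa, 5 without replicate 3 of 7 dpa, 6 without replicate 2 of 3 dpa and 6 without replicate 1 of 7 dpa. It was 17 without replicate 1 of 0 dpa, which enters this comparison only through the shared spread. The share of all genes is not given for these fits. Without the 4 libraries that stand apart, 35 of the 49 were lower at 7 than at 3 dpa, where 12% of all genes were.

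From 7 to 10 dpa no gene of the 49 passed (limma), none had an unadjusted p under 0.05, where 7.18% of all genes did, and their median log2 change was -0.07. Few genes of any kind differed here, 2 in all, or 0.0177% of those tested. With library weights 5 of the 49 passed, 3 higher and 2 lower, and the share of all genes in that fit is not given. Set against 0 dpa, 7 genes were higher at 10 dpa and none was lower, where 14% of all genes were higher and 2.73% lower, so the share called, 14.3%, is close to the background. The median log2 change was 0.51 against 0.16 for all genes. The 7 were kif20a (0.93 ± 0.28), top2a (0.93 ± 0.25), tpx2 (0.84 ± 0.21), kif2c (0.76 ± 0.24), ndc80 (0.69 ± 0.21), anln (0.67 ± 0.17) and cdk1 (0.66 ± 0.18). No call held in every fit that left out 1 library, and the share of all genes is not given for those fits. The count was 0 without replicate 2 of 0 dpa, 0 without replicate 3 of 10 dpa and 1 without replicate 3 of 0 dpa. It was 4 without replicate 2 of 10 dpa, either of replicates 1 and 2 of 3 dpa or either library of 14 dpa, and 28 without replicate 1 of 0 dpa. After scaling 4 were called, 8.16% against 10.8% of all genes, and without the 4 libraries that stand apart 8, 16.3% against 11.5%.

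At 14 dpa 20 of the 49 genes were higher than at 0 dpa and none was lower, where 10.1% of all genes were higher and 1.08% lower. All 20 were among the 42 called at 3 dpa, a comparison that uses the same 0 dpa libraries. The median log2 change was 0.80 against 0.30 for all genes. Among the largest were ccnb1 (1.27 ± 0.21, adjusted p = 0.00380), mad2l1bp (1.26 ± 0.22, adjusted p = 0.00487), plk1 (1.22 ± 0.23), tpx2 (1.17 ± 0.23), aurka (1.16 ± 0.30) and kif20a (1.11 ± 0.32). None of the 49 passed without replicate 1 of 14 dpa, where ccnb1 gave 1.19 (adjusted p = 0.0623) and mad2l1bp 1.20 (adjusted p = 0.0681), and 3 passed without replicate 2 of 14 dpa. The count was 7 without replicate 2 of 0 dpa, 8 without replicate 3 of 0 dpa and 34 without replicate 1 of 0 dpa. For these fits the share of all genes is not given. After median-of-ratios scaling the count was 8, where 2.4% of all genes were higher. Without the 4 libraries that stand apart it was 40, where 28% of all genes were higher.

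For 38 genes the 14 dpa mean was above those of both 7 and 10 dpa, a count for which the share of all genes is not given. The change at 14 against 10 dpa was positive for 45 of the 49 and for 6595 of all 11272 genes, and 14 against 7 dpa was not tested. At 14 against 10 dpa 1 gene was higher and none lower, where 5.14% of all genes were higher and 3.64% lower. It was mad2l1bp (0.83 ± 0.22, adjusted p = 0.0359). It missed the threshold without replicate 2 of 10 dpa (0.73, adjusted p = 0.122), replicate 3 of 10 dpa (0.71, adjusted p = 0.129), replicate 1 of 14 dpa (0.77, adjusted p = 0.242), replicate 2 of 14 dpa (0.89, adjusted p = 0.140) or replicate 2 of 3 dpa (0.83, adjusted p = 0.0533). The count was 2 without replicate 1 of 0 dpa and 3 without replicate 1 of 10 dpa. For these and the other counts in this paragraph that leave out 1 library, the share of all genes is not given. At an unadjusted p under 0.05, 8 genes were higher at 14 than at 10 dpa and none was lower, 16.3% of the 49, where 24.9% of all genes passed in either direction. For plk1 the change was 0.73 ± 0.23 (adjusted p = 0.0700), for ccnb1 0.69 ± 0.21 (adjusted p = 0.0641) and for aurka 0.69 ± 0.30 (adjusted p = 0.172). These 3 were among the 18 of the 49 genes for which all 14 dpa libraries exceeded all 10 dpa libraries, as they did for 25.9% of all genes. Between 14 and 3 dpa, 1 gene was lower at 14 dpa, the centromere histone gene cenpa (-1.04 ± 0.30, adjusted p = 0.0171), where 14.3% of all genes were lower and 19.8% higher. Its call was lost without replicate 1 of 14 dpa (-0.69, adjusted p = 0.202) or replicate 2 of 3 dpa (-0.98, adjusted p = 0.0515), and the count was 2 without replicate 1 of 0 dpa and 3 without replicate 1 of 3 dpa or replicate 2 of 7 dpa. Further changes at 14 against 3 dpa were -0.55 ± 0.21 for ccnb1 (adjusted p = 0.0647), -0.39 ± 0.23 for plk1 (adjusted p = 0.219), -0.69 ± 0.31 for cdc20 (adjusted p = 0.110) and -0.72 ± 0.28 for top2a (adjusted p = 0.0655). After scaling 6 were lower, 12.2% of the 49 against 16.2% of all genes, and without the 4 libraries that stand apart 9 were, 18.4% against 19.4%.

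The libraries that stand apart carried more mitosis transcripts than the others of their time. In replicate 1 of 0 dpa, 46 of the 49 genes were above both other 0 dpa libraries, which is 93.9% against 60.8% of all genes. In replicate 2 of 7 dpa this held for 44 genes, 89.8% against 51.2%. At 10 dpa, set against the 1 remaining library, replicate 2 was higher for 34 genes, 69.4% against 52.5% of all genes, and replicate 3 for 41, 83.7% against 57%. The genes were higher in all 4 libraries in 33 cases, a count for which the share of all genes was not computed. Of the other 16, aurkaip1 was lower in all 4, ccnb2 was lower in the 7 and 10 dpa ones, ska2 was lower in both 10 dpa ones, and mad2l1bp was lower in replicate 2 of 7 dpa and both 10 dpa libraries and between the others in replicate 1 of 0 dpa. Plk1, ccnb1 and anln were higher in the 0 and 7 dpa libraries of this kind and lower in the 10 dpa ones. The part of the state marked by fosb in the comparisons of times was not tested beyond leaving these libraries out.

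Other genes of mitosis, from a list of 64 of which 47 were tested, were also higher at 3 than at 0 dpa in most cases. At 3 dpa 37 were higher and none was lower, with a median log2 change of 1.04, and without the 4 libraries that stand apart 44 were, 93.6% against 42.4% of all genes. At 7, 10 and 14 dpa 17, 9 and 21 of the 47 were higher than at 0 dpa and none was lower. Of all genes 35%, 21.5%, 14% and 10.1% were higher at 3, 7, 10 and 14 dpa in the fit of all libraries. Among those with the largest change at 3 dpa were g2e3, a ubiquitin ligase gene of the late cell cycle (1.98 ± 0.19), ccnf, cyclin F (1.76 ± 0.30), trip13, which remodels Mad2 (1.69 ± 0.33), and kpna2, a nuclear import receptor that also binds Tpx2 (1.64 ± 0.17). Of 18 genes for factors that regulate cell cycle transcription, not only late in the cycle, 10 were higher at 3 dpa, where 35% of all genes were. Their median log2 change was 0.64. Foxm1 is the transcription factor best known for switching on mitotic genes. Its gene was at 5.60, 4.86 and 5.96 TPM at 0 dpa, 18.3, 20.8 and 20.5 at 3 dpa, 11.8, 11.5 and 11.9 at 7 dpa, 11.2, 7.49 and 8.47 at 10 dpa, and 14.8 and 11.2 at 14 dpa. All 3 dpa libraries exceeded all others, and the change was 1.69 ± 0.17 (adjusted p = 5.11e-06). Unlike most mitosis genes, foxm1 was lower in both 10 dpa libraries that stand apart than in replicate 1 of 10 dpa. The difference was 0.79 ± 0.33 for mybl2b, of the B-Myb activator, which did not pass (adjusted p = 0.0624), while e2f3 changed by 2.31 ± 0.21 and e2f4 by 1.28 ± 0.27.

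Genes of G1 and S phase, when the cell commits to division and copies its DNA, numbered 25 tested, of which 7 were higher at 3 dpa and none was lower, with a median log2 change of 0.68. The share, 28%, is below the 35% of all genes called higher. Without the 4 libraries that stand apart 20 of the 25 were higher, which is 80% against 42.4% of all genes, and after median-of-ratios scaling 4, which is 16% against 26%. The largest changes were in the E cyclin genes ccne1 (2.16 ± 0.25) and ccne2 (1.21 ± 0.17), in uhrf1, which keeps DNA methylation through replication (1.42 ± 0.40), and in rrm2, of nucleotide synthesis (0.99 ± 0.22). Their summed level was 1229 ± 123 TPM at 3 dpa and 806 ± 280 TPM at 0 dpa (SD, n = 3 each). The mitosis sum without aurkaip1, divided by this G1 and S sum, was 0.886 ± 0.0906 at 0 dpa, 1.33 ± 0.147 at 3 dpa, 1.04 ± 0.217 at 7 dpa, 0.907 ± 0.204 at 10 dpa (SD, n = 3 each) and 1.24 ± 0.221 at 14 dpa (SD, n = 2). In the 4 libraries that stand apart the ratio was between 0.772 and 0.832, and in the other 10 between 0.845 and 1.42. The sums of both groups were high in those 4 libraries for their time, and that of G1 and S the more so. The rings of cohesin hold sister chromatids together. At 3 dpa 2 of 9 cohesin genes tested were higher and 1 lower, both under the shares of all genes (35% and 19.6%). These were stag1a (0.88 ± 0.23), smc1al (0.68 ± 0.22) and, lower, the loader gene nipbla (-0.46 ± 0.11). The smc1al call was lost after scaling (0.42) and without replicate 2 (0.59) or 3 (0.53) of 0 dpa or replicate 1 of 3 dpa (0.57), and without the 4 libraries 5 cohesin genes were higher and 1 lower. Of 13 genes for Cdk inhibitors and p53 targets 3 were higher and 8 lower, where 35% of all genes were higher and 19.6% lower. Among the lower were ccng2 (-3.12 ± 0.61) and gadd45ba (-1.91 ± 0.46), while cdkn1ca, of the p57 inhibitor, was higher (2.10 ± 0.21). The cdkn1ca mean at 0 dpa was only 0.629 TPM. The related genes cdkn1ba (1.19 ± 0.17) and cdkn1bb (-0.87 ± 0.27) were called in opposite directions. Of the lower genes, btg2 was at 1365, 430 and 430 TPM in the 0 dpa libraries and gadd45aa at 61.0, 59.7 and 56.0 TPM. Counts of this list without the 4 libraries that stand apart are not given.

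**Figure D4:**
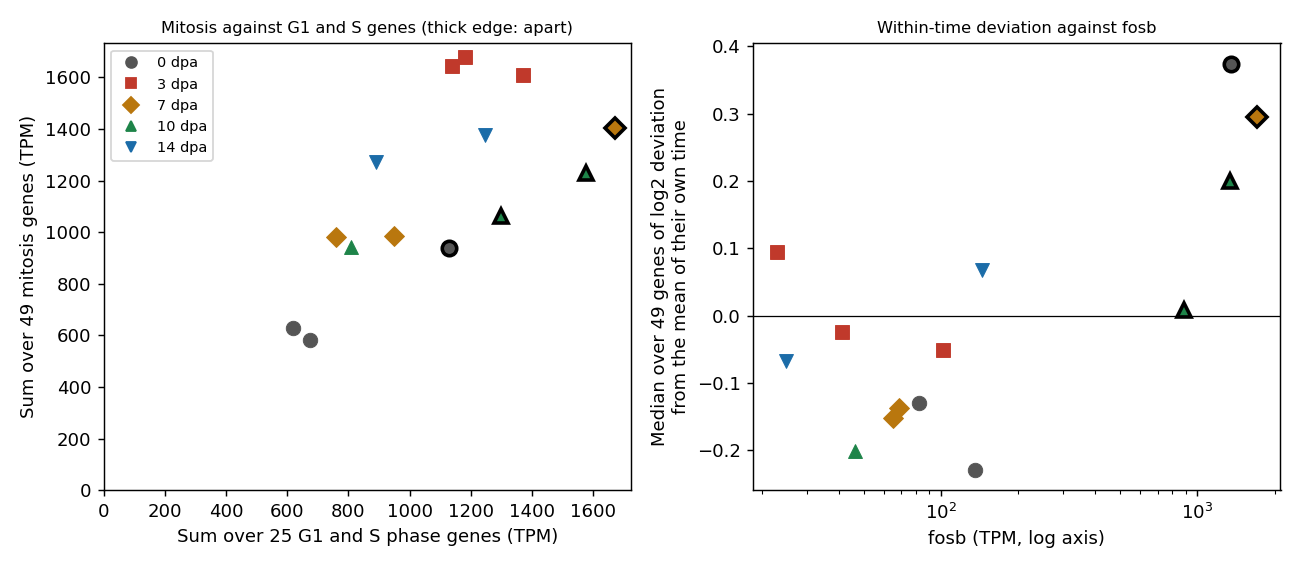
Left, summed TPM of the 49 mitosis genes against that of 25 G1 and S phase genes, 1 point per library, with a thick black edge for the 4 libraries that stand apart. Right, the median over the 49 genes of each library's log2 deviation from the mean of its own time against fosb in TPM on a log axis. The 3 dpa libraries have the highest mitosis sums, between 1609 and 1678 TPM, and the 4 libraries with fosb between 886 and 1702 TPM have deviations between 0.01 and 0.37. The other libraries have deviations between -0.23 and 0.09, so these ranges overlap.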

How the data were processed

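The deposited values are TPM per gene in 14 libraries, made by the authors and summing to the same total in each. Reads were handled with Salmon 1.4.0, Trim Galore 0.6.7 and cutadapt 3.5 on the danRer11 build, per the submitters' processing notes, with no order or step summing transcripts to genes recorded there. Salmon shares reads between similar genes by estimation, so members of one family, such as ccnb1 and ccnb2 or aurka and aurkb, are less certain. TPM keeps no depth, and no counting interval is given.

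The 11272 genes reaching 1 TPM in 2 or more libraries were transformed as log2(TPM + 1), and fitted with limma 3.58.1 in R 4.3.3, with 1 mean per time over all 14 libraries and variances following mean expression. Contrasts were two-sided and adjusted by Benjamini-Hochberg over all genes kept, and an adjusted p under 0.05 was called. Log2 changes are given ± standard error and understate the change of low genes. The p-values measure the spread between pools. The fit was tested on simulated data with independent noise for each gene and few changed genes. These data differ in both respects, so that test says nothing about shifts shared by many genes.

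The members, roles, lists and the 4 libraries left out were chosen with earlier results of these data known. Values of every library are given for the main cyclins and kinases and, in each role, for the 3 genes with the largest change at 3 dpa and the most abundant one. From the other lists up to 4 called genes with the largest change at 3 dpa could be named, with fosb, foxm1 and mybl2b. Each count was repeated under the alternatives named in the closing section. No sequence was used here.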

Additional observations from a re-analysis of the deposited data

How the results depend on the processing

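No count of the 49 genes called turned direction under any alternative other than library weights, which called 2 genes lower and 3 higher at 10 against 7 dpa. The gene cenph at 3 against 0 dpa became -0.0275 under quantile normalization, against 0.25 as reported, and neither was called. The count at 3 against 0 dpa stayed between 35 and 48 throughout. Library weights, which count libraries that fit less well for less, gave 33 at 7 against 0 dpa, 43 at 10 against 0, 45 at 14 against 0, 33 at 7 against 3, 5 at 10 against 7, 16 at 14 against 10 and 10 at 14 against 3 dpa. Quantile normalization gave 6, 2 and 6 at 7, 10 and 14 against 0 dpa, 24 at 7 against 3 and 9 at 14 against 3 dpa. Fits of only the libraries of both times gave 5, 0 and 2 at 7, 10 and 14 against 0 dpa, 0 at 14 against 10 and 9 at 14 against 3 dpa. Median-of-ratios scaling gave 4 and 8 at 10 and 14 against 0 dpa, 0 at 14 against 10 and 6 at 14 against 3 dpa. Without the 4 libraries that stand apart the counts were 40 at 14 against 0 dpa, 35 at 7 against 3, 0 at 14 against 10 and 9 at 14 against 3 dpa. A mean of at least 5 TPM gave 0 at 14 against 10 dpa, and a pseudocount of 5 gave 2 at 14 against 3 dpa. A pseudocount of 0.1, no filter and no variance trend kept every count within 1.5 times. The shares of all genes called are not given beside these counts, so the shifts cannot be read as particular to the mitosis genes. The cause of these shifts was not tested.

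Leaving out 1 library at a time gave between 37 and 45 at 3 against 0 dpa, 6 and 27 at 7 against 0, 0 and 28 at 10 against 0, 0 and 34 at 14 against 0, 4 and 17 at 7 against 3, 0 and 3 at 14 against 10, 0 and 3 at 14 against 3, and between 23 and 39 at any time. The lone 14 dpa library, like the lone 10 dpa library without the 4 that stand apart, was then assumed to vary like the other groups. For these counts too the shares of all genes called are not given.

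Whether the replicate numbers pair the libraries could not be decided. Deviations from the time means of same-numbered libraries correlated between -0.77 and 0.57 over 26 pairs, with a median of -0.10 and 10 over 0.1. Between 0 and 3 dpa the values were 0.30, 0.29 and 0.17. Deviations from the mean of so few libraries cancel out within each time, so these correlations cannot exclude a pairing. A replicate block gave 4 at 10 against 0 dpa and 0 at 14 against 10 dpa, and its other counts stayed within 1.5 times, among them 42 at 3 against 0 dpa. TPM gives no depth, so the limits for low genes such as cenph and cenpq cannot be stated as counts.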

Other observations

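Libraries of 3 dpa, alike in their summed mitosis level, differed in which of the genes were high. In 20 of the 49 genes replicate 3 was highest and replicate 1 lowest, among them ccnb1, plk1, aurka, cdc20, tpx2, ndc80, kif23 and ncapg, which is 40.8% against 23.4% of all genes. In 8 genes replicate 1 was highest and replicate 3 lowest, which is 16.3%, under the 20.9% of all genes. That order was thus no more frequent among the 49 than in general. The 8 were top2a, ncapd2, ncapg2, ncaph2, smc2, smc4, kif4 and cenpq. They include 5 of the 6 condensin genes, ncapg being the exception. For plk1 replicates 1, 2 and 3 held 61.5, 85.6 and 99.4 TPM, and for top2a 175, 159 and 131 TPM. The summed level of the G1 and S genes was 1370, 1138 and 1180 TPM in these libraries, and that of the stress genes 5671, 3586 and 4235 TPM. Replicate 3 was the highest of the 3 libraries for 40% of all genes and for 26 of the 49. The pattern was noticed after the values were seen and was not tested.

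Markers of skeletal and fibril-forming cells had other levels late in regrowth than the mitosis genes. The 3 tested markers of actinotrichia, the collagenous fibrils of the fin tip, summed to between 99.2 and 259 TPM at 0 dpa, between 18188 and 20753 at 3 dpa, between 5705 and 9826 at 7 dpa, between 3657 and 4784 at 10 dpa and between 1067 and 1268 at 14 dpa. The gene and1 made up between 73.5% and 88.5% of this sum. From 3 to 7 dpa and3 went the other way, with a log2 change of 2.07, against -1.25 for and1 and -1.40 for and2. Osteoblast markers, of whose sum col10a1a made up between 62.3% and 96.1%, summed to between 2334 and 2692 TPM at 14 dpa and between 6880 and 8951 at 10 dpa. The summed mitosis level was between 1271 and 1377 TPM at 14 dpa and between 945 and 1228 at 10 dpa. These values were not tested against each other.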
